A study of Mus musculus with 32 samples.

Results

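Hippocampal transcript levels were compared between 4 albino inbred mouse strains (A/J, BALB/cByJ, FVB/NJ and SJL/J) and 4 pigmented ones (C3H/HeJ, C57BL/6J, DBA/2J and the strain titled hippocampus_129S1SvImJ, called the second agouti strain). The albino set was made of the strains that lack working tyrosinase, and it covered 16 of the 32 arrays in the series, 4 for each strain. The other 16 arrays came from the pigmented strains. The labels name no treatment, age or sex for either set. Each strain was 1 pool of total hippocampal RNA from 6 mice, from which cRNA was made in 2 preparations, with 2 Affymetrix U74Av2 arrays for each. The 4 arrays of a strain are technical repeats of its pool, so the strain was the unit and 4 strain means were compared with 4. The mean of the 4 strains is given with its SD (n = 4 strains).

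Tyrosinase, the product of Tyr on chromosome 7, carries out the first steps of melanin synthesis in melanocytes and in the pigment epithelium of the retina. Mice homozygous for the classical albino allele, which changes a cysteine of the enzyme to serine, make the cells but no melanin. Brain neurons and glia are not pigment cells, so the enzyme has no established role in the hippocampus, although the meninges around it hold some melanocytes. The pigmented strains are not alike in coat: C57BL/6J is black, DBA/2J is a diluted brown, and C3H/HeJ and the second agouti strain have banded agouti hair. Inbred strains differ at many loci at once, so the albino allele cannot be told apart from any other allele that happens to divide these 8 strains in the same way. FVB/NJ and SJL/J among the albino strains and C3H/HeJ among the pigmented ones also carry a retinal degeneration allele.

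The stretch upstream of Tyr is shown because this gene defines the comparison. It is RefSeq's promoter of the C57BL/6J reference, a pigmented strain, on the minus strand at chr7:87493463-87493762 (GRCm38.p6), most of it before the start of transcription. Capitals mark the 1 match to CATGTG or its reverse complement CACATG, the E-box core read by the melanocyte regulator Mitf.
Tyr promoter: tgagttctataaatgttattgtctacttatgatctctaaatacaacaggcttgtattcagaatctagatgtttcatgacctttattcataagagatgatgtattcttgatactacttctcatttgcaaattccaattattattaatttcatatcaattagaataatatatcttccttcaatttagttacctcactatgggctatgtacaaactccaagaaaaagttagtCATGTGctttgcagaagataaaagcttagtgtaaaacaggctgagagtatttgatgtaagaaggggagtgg
Of 32851 RefSeq promoters of that length, 14.2% hold the same letters on either strand, so a match is a description of the sequence only.

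Values are log2 of the deposited signal, and 7453 probe sets, the brightest 60%, were tested. Median array signal was 33.4 to 43.7 in albino strains and 29.4 to 39.9 in pigmented strains. The mean of 6 sense-strand control probe sets (actin and Gapdh) was high, at a log2 of 6.95 to 7.84, on 9 of the 16 albino arrays, all 4 of BALB/cByJ among them, and on 2 of the 16 pigmented arrays, both of C3H/HeJ (6.97 and 7.04). On the remaining arrays it was 5.09 to 5.62 in albino strains and 4.91 to 5.64 in pigmented strains. The titles name 6 days. The first 4 days held arrays of both sets, and the last 2 held only 3 albino arrays, of BALB/cByJ and FVB/NJ. The counts over all genes and the values of the named genes were therefore also computed within days, within preparations, without BALB/cByJ and without the arrays of high sense-strand signal. Gene lists, gene neighbourhoods and chromosomes were counted in the full comparison only. Array 2 of FVB/NJ counts as preparation 1 by its number, but it was run on day 3, as were preparation 2 arrays of other strains, and its sense-strand signal was 5.33, against 7.39 on array 1. Preparation values were therefore also computed with this array in preparation 2, a choice made after seeing the data. Across the tested probe sets the correlation between strain means was 0.938 to 0.979 for the 6 pairs of albino strains, 0.966 to 0.974 for the 6 pigmented pairs and 0.933 to 0.979 for the 16 mixed pairs. Without BALB/cByJ the 3 remaining albino pairs ran from 0.977 to 0.979 and the 12 mixed pairs from 0.967 to 0.979. Strains of the same coat set were thus about as much alike as strains of different sets.

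Nefl, the light chain around which the neurofilaments of axons are assembled, was the single gene that differed between albino and pigmented strains past the test. It read 6.40 in A/J, 6.67 in BALB/cByJ, 6.26 in FVB/NJ and 6.60 in SJL/J, against 7.92 in the second agouti strain, 8.18 in C3H/HeJ, 8.31 in C57BL/6J and 8.27 in DBA/2J. All 4 albino strains were low and all 4 pigmented strains high, with 1.25 log2 units between the highest albino and the lowest pigmented strain. The means were 6.48 ± 0.19 in albino strains and 8.17 ± 0.18 in pigmented strains (SD, n = 4 strains each). The Nefl signal was therefore 3.22-fold lower in albino strains (log2 difference -1.69 ± 0.13, SE, limma's moderated test, adjusted p = 0.000401). The two-sided exact permutation test over the 8 strain means gave p = 0.0286, the smallest it can give here.

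On the linear scale the Nefl signal of single arrays was 49.6 at the lowest, 96.1 at the median and 118 at the highest over the 16 albino arrays. Over the 16 pigmented arrays it was 214, 282 and 425. No albino array reached any pigmented array, and Nefl was the 1 probe set of 7453 for which this held. Without BALB/cByJ the difference was -1.75 ± 0.13 (adjusted p = 0.000834), and with the high sense-strand arrays left out it was -1.74 ± 0.15 (adjusted p = 0.00356), both from limma. It was -1.65 in preparation 1 and -1.73 in preparation 2, each past limma's test. With array 2 of FVB/NJ in preparation 2 these were -1.63 and -1.66, also past the test. The difference lay between -1.53 and -1.83 within the 4 single days. On days 2 and 4, with 1 array from each of 7 strains, the adjusted p from limma was 0.108 and 0.0858.

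**Figure D1:**
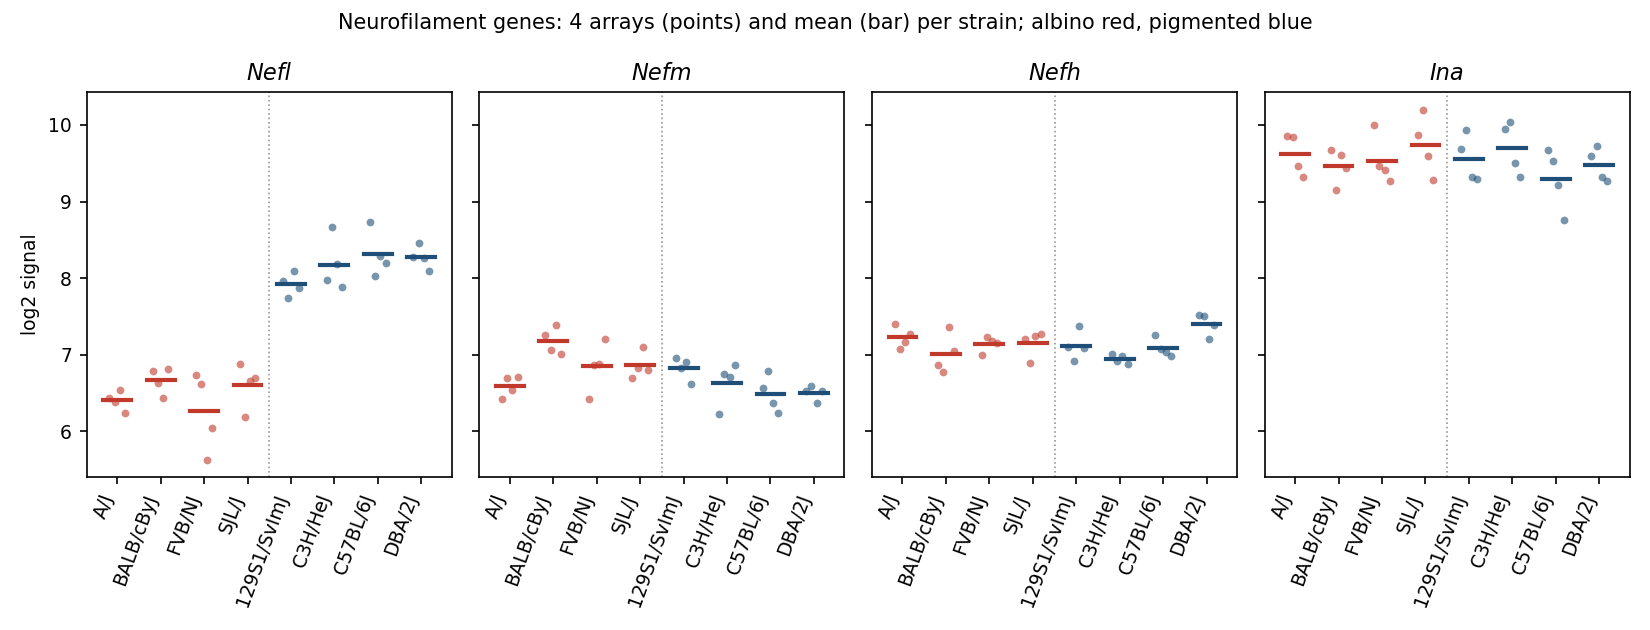
The y axis is log2 signal for 4 neurofilament genes in each of 8 strains, albino strains in red to the left and pigmented strains in blue to the right; points are the 4 arrays of a strain and bars their mean. All red points of Nefl lie below all blue points, while in Nefm, Nefh and Ina (shown for the brighter of 2 Ina probe sets) the sets overlap.

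Nefl assembles with medium and heavy chains and with alpha-internexin, and no such partner differed past the test. These partners were chosen after the value of Nefl was seen. Nefm, the medium chain and the next protein-coding gene to Nefl on chromosome 14, read 6.59, 7.18, 6.85 and 6.86 in A/J, BALB/cByJ, FVB/NJ and SJL/J, against 6.83, 6.64, 6.49 and 6.50 in the second agouti strain, C3H/HeJ, C57BL/6J and DBA/2J. The sets overlapped, and the difference of 0.26 ± 0.14 had the opposite sign to that of Nefl (adjusted p = 0.887, limma). Nefh, the heavy chain, ran from 7.01 to 7.23 in albino strains and from 6.95 to 7.41 in pigmented strains, a difference of -0.01 ± 0.12. Both probe sets of Ina, alpha-internexin, also differed little, by 0.04 ± 0.11 and 0.08 ± 0.11. Among motors of axonal transport, Kif5a differed by -0.11 ± 0.16 and -0.08 ± 0.17 on 2 probe sets and Dync1h1 by -0.09 ± 0.13. Nefl had 1 probe set on the array, so a second reading of the transcript was not to be had from these data. Transcript level and the hybridisation of that probe set to the RNA of each strain cannot be told apart here.

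Over all genes, limma's test called 1 of 7453 probe sets, 0.0134% of those tested. The preparation number, which the study design ties to the cRNA synthesis, served as a block in another fit, over 16 preparation means with strain as a random term. That fit called 4 probe sets: Nefl, Aldh1a1 and 2 that have no single gene symbol. The same fit without the preparation term, added after seeing the data, called 2, so the block is not the only way in which it departs from the fit over strain means. Both fits take the 2 technical preparations of each pool as separate values, so their added calls do not rest on more strains. A single within-strain correlation (0.36 with the block) was applied to all probe sets. At an unadjusted p under 0.05, 320 probe sets (4.29%) passed, 202 of them higher and 118 lower in albino strains. The median difference over all tested probe sets was 0.01 log2 units, the median size of a difference was 0.12, and 23 probe sets differed by 2-fold or more.

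A plainer count asked for how many probe sets the 4 albino strain means lay all above or all below the 4 pigmented ones. There were 178 of these, 2.39% of the tested probe sets, with 97 higher (54.5% of them, 1.3% of those tested) and 81 lower (1.09%) in albino strains. They covered 159 named genes. A random order of 8 strain means separates 4 from 4 in a share of 0.0286, the smallest p of the exact permutation test. The 2.39% seen does not exceed that share, so nothing is read from the count itself. With arrays centred on their median the count was 232, with 55 higher (23.7%) and 177 lower, and with quantile normalization 200, with 86 higher (43%). With all 12422 probe sets in, 65.5% were higher, and without the high sense-strand arrays, which removes BALB/cByJ, 70.3%. The direction of these probe sets as a whole thus moved with the processing. In preparation 1 alone 175 probe sets had no overlap and in preparation 2 alone 269, and 20 of them had none in both on the same side, 8 higher and 12 lower in albino strains. With array 2 of FVB/NJ in preparation 2 this number was also 20, with 9 higher and 11 lower.

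Named below are the 12 genes higher and the 12 lower with no overlap that had the smallest limma p, of which only Nefl passed after adjustment. For all of them the exact permutation test gave its smallest value, p = 0.0286, because the strain means do not overlap.

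Aldh1a1, which makes retinoic acid from retinaldehyde, had the next largest difference among these lower genes. It read 7.05 in A/J, 5.16 in BALB/cByJ, 6.19 in FVB/NJ and 5.81 in SJL/J, against 7.44 in the second agouti strain, 7.34 in C3H/HeJ, 7.79 in C57BL/6J and 7.64 in DBA/2J. The pigmented strains lay close to each other, whereas the albino strains were spread widely, with A/J nearest to the pigmented set. The difference was -1.50 ± 0.32 (2.83-fold, adjusted p = 0.537, limma). Without A/J it was -1.83 ± 0.23 (adjusted p = 0.0375, limma), and with the preparation block the difference was still -1.50, with an SE of 0.26 and past the test (adjusted p = 0.0279, limma). That fit without the preparation term gave adjusted p = 0.0543 (limma). With the block and array 2 of FVB/NJ in preparation 2 the difference was -1.54 ± 0.25 (adjusted p = 0.0159, limma). These fits over preparation means take technical preparations of a pool as separate values. Some other choices of arrays gave smaller differences: -1.20 ± 0.25 without BALB/cByJ (adjusted p = 0.955), -0.98 on day 3 (adjusted p = 0.988) and -1.02 without the high sense-strand arrays (adjusted p = 0.762), all from limma. Others gave larger ones that did not pass limma's test either: -1.70 on day 1, -1.62 on day 2 and -1.55 in preparation 1.

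Hopx, a homeodomain protein that binds no DNA itself and marks some progenitor cells and astrocytes, read 6.87 in A/J, 7.93 in BALB/cByJ, 8.76 in FVB/NJ and 8.19 in SJL/J. In the pigmented strains it read 9.09 in the second agouti strain, 8.89 in C3H/HeJ, 8.99 in C57BL/6J and 9.08 in DBA/2J. The albino strains were spread over nearly 2 log2 units, and FVB/NJ came within 0.13 of C3H/HeJ. The difference of -1.08 ± 0.30 did not pass (adjusted p = 0.887, limma).

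The other lower genes differed by less than 1 log2 unit, and none passed limma's test. Hsd17b10, a dehydrogenase of mitochondria, averaged 6.16 ± 0.39 in albino strains and 6.87 ± 0.16 in pigmented strains, with only 0.01 between A/J (6.64) and C57BL/6J (6.65). Nipsnap1, also mitochondrial, averaged 6.17 ± 0.24 in albino strains and 6.72 ± 0.11 in pigmented strains. Arhgap35 averaged 6.89 ± 0.16 in albino strains and 7.38 ± 0.14 in pigmented strains. Among the lower genes the sets were apart in each preparation as well for Nefl, Aldh1a1, Hopx, Arhgap35, Nipsnap1 and Eogt. With array 2 of FVB/NJ in preparation 2 this also held for Traf6 and no longer for Hopx.

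Eogt, a glycosyltransferase of the secretory pathway, was the tightest of the set, at 5.42 to 5.64 in albino strains and 5.83 to 5.98 in pigmented strains. Hdac3, a histone deacetylase, averaged 5.76 ± 0.45 in albino strains and 6.39 ± 0.17 in pigmented strains. Traf6, a ubiquitin ligase of innate immune signalling, averaged 4.74 ± 0.34 in albino strains and 5.36 ± 0.15 in pigmented strains. Rbbp9, a serine hydrolase, differed by -0.66 ± 0.20, but its second probe set differed by 0.20 ± 0.28, so its probe sets disagreed in direction. Ctsb, the lysosomal protease cathepsin B, differed by -0.28 ± 0.09 on the brightest of 3 probe sets and by -0.18 ± 0.15 and -0.16 ± 0.17 on the others. Sar1b, a GTPase of vesicle coats, differed by -0.38 ± 0.12 on a probe set that may cross-hybridise.

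**Figure D2:**
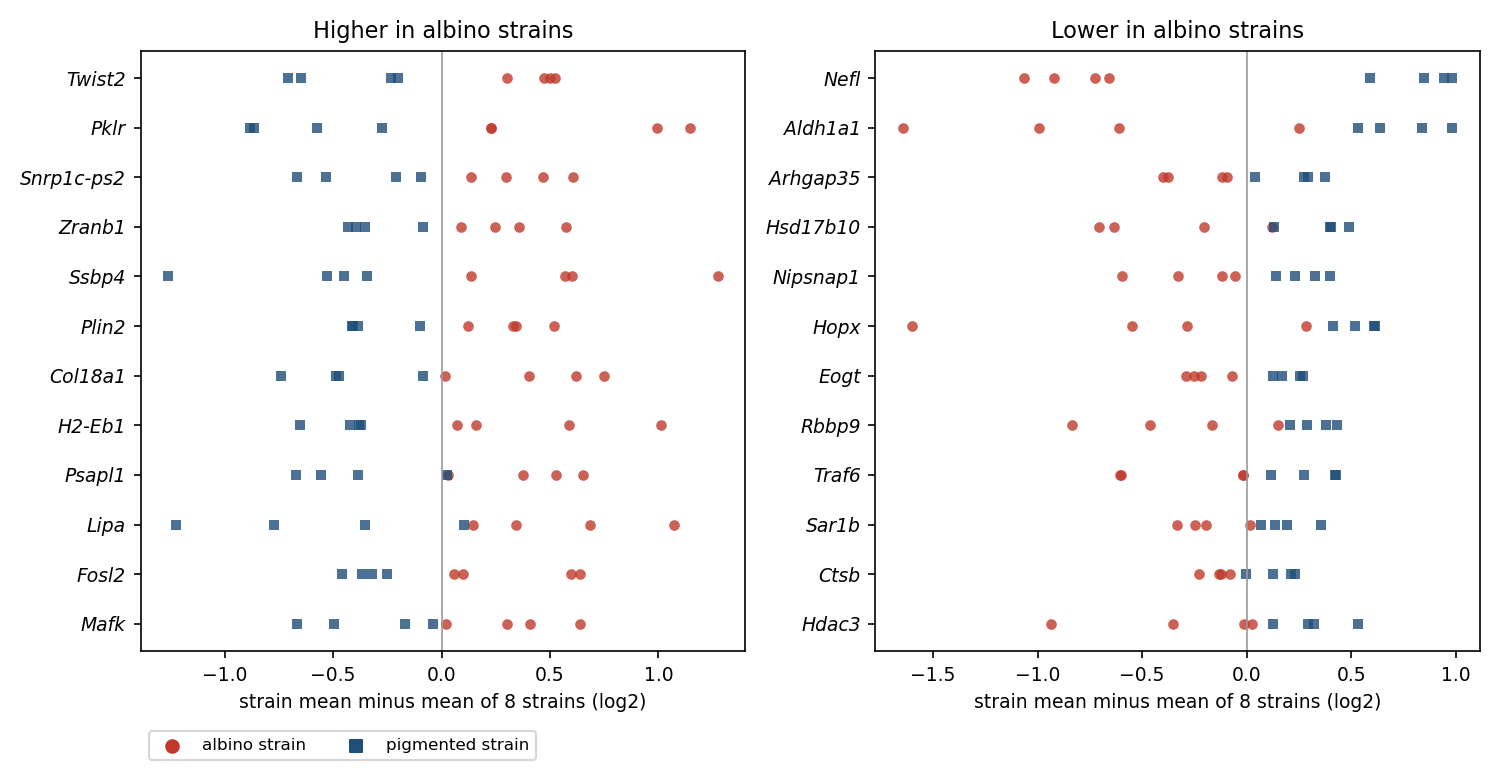
Each row is a gene and each point a strain mean (4 arrays), drawn as its log2 difference from the mean of all 8 strains; red circles are albino strains and blue squares pigmented strains. Nefl has the widest gap (1.25), and all other genes shown have gaps under 0.51.

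Among the 12 higher genes, Twist2, a transcription factor of mesenchymal cells, came closest to the threshold. It read 6.16, 6.36, 6.33 and 6.39 in A/J, BALB/cByJ, FVB/NJ and SJL/J, against 5.66, 5.22, 5.63 and 5.16 in the second agouti strain, C3H/HeJ, C57BL/6J and DBA/2J. The albino strains lay close together and 0.50 above the nearest pigmented strain, and the difference was 0.90 ± 0.15 (1.86-fold, adjusted p = 0.415, limma). Pklr, the pyruvate kinase of liver and red blood cells, averaged 5.75 ± 0.49 in albino strains and 4.45 ± 0.29 in pigmented strains (2.46-fold, adjusted p = 0.537, limma). Without the high sense-strand arrays its difference was 1.52 ± 0.19 and passed (adjusted p = 0.0367, limma). That choice leaves albino arrays of days 3 to 5 only, whereas the pigmented strains other than C3H/HeJ keep days 1 and 2, so day and coat are partly confounded in it. The difference of Pklr was 0.23 on day 2, 2.36 on day 4, 1.01 in preparation 1 and 1.59 in preparation 2, none of them past the test. Ssbp4, of a family that binds single-stranded DNA, differed by 1.29 ± 0.28 on 1 of 3 probe sets, by 0.13 ± 0.24 on the brightest and by 0.33 ± 0.20 on the third.

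Genes of lipids and lysosomes were also on this side. Plin2, which coats lipid droplets, averaged 6.10 ± 0.16 in albino strains and 5.45 ± 0.15 in pigmented strains. Lipa, the acid lipase of lysosomes, averaged 5.35 ± 0.41 in albino strains and 4.23 ± 0.57 in pigmented strains, where the second agouti strain (4.89) came within 0.04 of SJL/J (4.93). Psapl1, a relative of prosaposin, differed by 0.79 ± 0.20 with a gap of 0.001 between A/J and the second agouti strain. No list of lipid genes was tested, so no theme is drawn from these 3.

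H2-Eb1, a beta chain of class II histocompatibility molecules, read 4.84 in A/J, 4.93 in BALB/cByJ, 5.36 in FVB/NJ and 5.78 in SJL/J, against 4.12 to 4.40 in the pigmented strains. Its difference was 0.91 ± 0.22 (adjusted p = 0.887, limma), at signals near the low end of the tested range. The pigmented means of H2-Eb1 (4.31), Lipa (4.23) and the Ssbp4 probe set of largest difference (3.88) were below the brightness limit. These probe sets were thus tested only because the albino strains read higher, as were others of the 97 higher without overlap. Col18a1, a collagen of basement membranes, differed by 0.89 ± 0.20. Fosl2 and Mafk, transcription factors of the leucine zipper class, differed by 0.70 ± 0.19 and 0.68 ± 0.18. Zranb1, a deubiquitinase, differed by 0.63 ± 0.14, while its dimmer probe set differed by -0.18 ± 0.21. Snrp1c-ps2, by its name a pseudogene of a spliceosome subunit, differed by 0.75 ± 0.16 on a probe set that can read related transcripts.

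Few genes of pigmentation were bright enough to test. Of 16 genes for melanin synthesis and the melanosome, 10 were on the array under a single symbol, 5 of these passed the brightness filter, and 0 passed limma's test, had an unadjusted p under 0.05 or lacked overlap. The shares over all tested probe sets were 0.0134%, 4.29% and 2.39%, so 0 of 5 is near the background and nothing is read from it. Tyr itself fell below the filter, at 2.79 in A/J, 3.01 in BALB/cByJ, 3.02 in FVB/NJ and 2.56 in SJL/J, against 2.92 in the second agouti strain, 2.37 in C3H/HeJ, 3.39 in C57BL/6J and 2.65 in DBA/2J. These signals are low in every strain and the sets overlap. The albino allele changes the protein, and these readings say nothing of the enzyme.

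The 4 probe sets of Tyrp1, the next enzyme of the pathway, were below the filter too, with strain means of at most 3.15 in albino strains and 3.43 in pigmented strains. Dct, the third member of the tyrosinase family, read 4.17 to 5.78 in albino strains, with BALB/cByJ highest, and 4.46 to 5.02 in pigmented strains. Its difference was -0.01 ± 0.32. Pmel, which builds the fibres of the melanosome, differed by 0.13 ± 0.23, and the melanosome transporter Oca2 by 0.16 ± 0.23. One probe set of Mif, a gene of this list, had no overlap but lay below the filter, at 1.84 to 2.65 in albino strains and 1.03 to 1.66 in pigmented strains. With no filter, 2.59% of 12422 probe sets lacked overlap, and 65.5% of these were higher in albino strains. Nothing is therefore read from this probe set. Atp7a, which supplies copper to tyrosinase and other enzymes, differed by -0.27 ± 0.21, and Ddt, a relative of macrophage migration inhibitory factor, by -0.04 ± 0.12. With intervals this wide, small differences in these genes were not detectable.

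**Figure D3:**
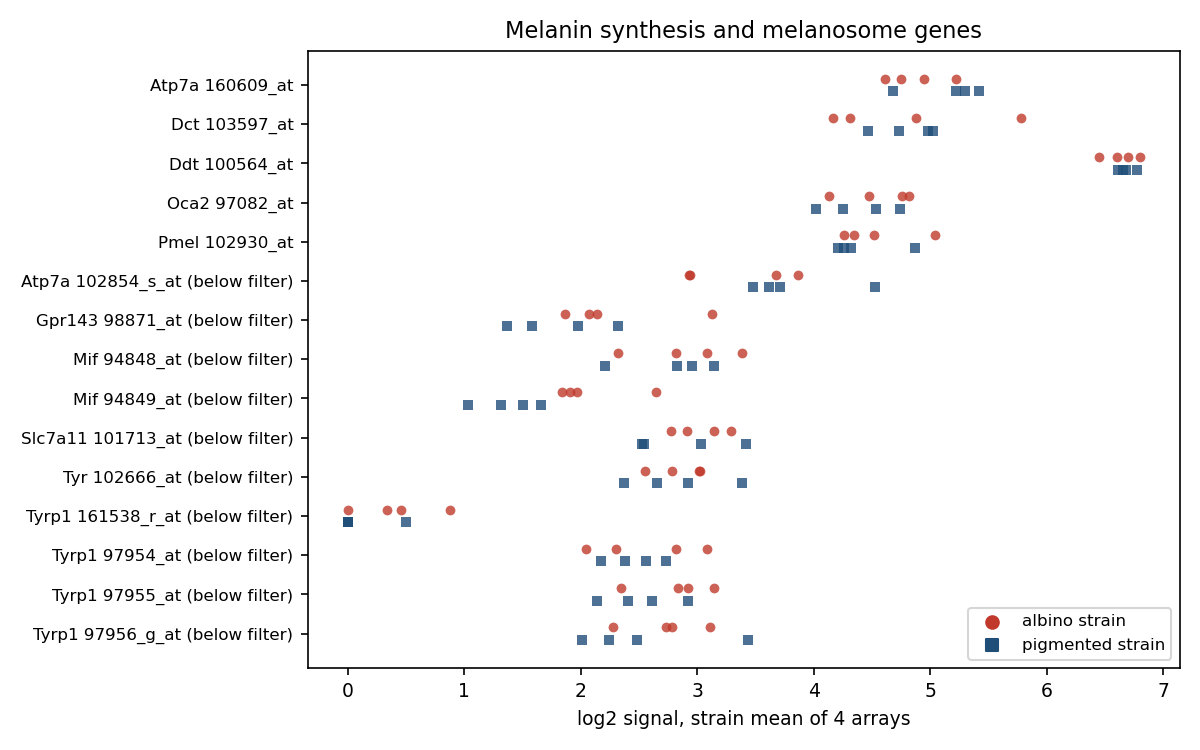
Each row is a probe set of a gene for melanin synthesis or the melanosome and each point a strain mean of log2 signal; red circles are albino strains and blue squares pigmented strains. The sets overlap in all 5 rows that passed the brightness filter, and Tyr and Tyrp1 are among the probe sets below it.

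Of 16 genes that direct melanocytes and coat colour, 5 were tested, with 0 past the test and 0 without overlap, against 2.39% of all tested probe sets without overlap, which is again near the background. Ednrb, the endothelin receptor of melanocyte precursors, had no overlap but lay below the brightness filter, at 3.68 to 4.17 in albino strains and 2.94 to 3.54 in pigmented strains. With no filter the share without overlap was 2.59%, with 65.5% of these higher in albino strains, so nothing is read from Ednrb either. Sox10, which in brain is a regulator of oligodendrocytes, averaged 7.45 ± 0.27 in albino strains and 7.32 ± 0.07 in pigmented strains. Mc1r, the melanocortin receptor of melanocytes, averaged 5.83 ± 0.18 in albino strains and 5.71 ± 0.27 in pigmented strains. Pomc, the precursor of melanocortins, was spread widely in both sets, from 4.19 to 5.03 in albino strains and from 3.64 to 5.03 in pigmented strains.

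Melanosomes are related to lysosomes and share their transport machinery with other organelles. Of 27 genes for such organelles 11 were tested, and 1 had no overlap, against 2.39% of all tested probe sets. This was Rabggta, the enzyme that attaches lipid anchors to Rab proteins, at 6.57, 6.31, 6.73 and 6.66 in A/J, BALB/cByJ, FVB/NJ and SJL/J, against 6.83, 6.85, 7.10 and 6.76 in the second agouti strain, C3H/HeJ, C57BL/6J and DBA/2J. Its difference was -0.32 ± 0.13, and that of Hps4, a factor of organelle biogenesis, was 0.40 ± 0.17, both with an adjusted p of 0.887 from limma. Myo5a, the motor that carries melanosomes and is altered in the dilute strain DBA/2J, read 4.73 to 5.52 in albino strains and 5.08 to 5.49 in pigmented strains, with DBA/2J the lowest pigmented strain. The median difference of the 11 genes was -0.03, against 0.01 over all tested probe sets.

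Tyrosine is also the starting point of dopamine and noradrenaline, and 13 of 38 genes that handle tyrosine, dopa and catecholamines were tested. None passed limma's test, 0 had an unadjusted p under 0.05 and 0 lacked overlap. Over all tested probe sets the shares were 0.0134%, 4.29% and 2.39%, so these counts are near the background and nothing is read from them. Th, tyrosine hydroxylase, read 4.77, 4.31, 4.67 and 5.43 in A/J, BALB/cByJ, FVB/NJ and SJL/J, against 5.33, 5.07, 5.29 and 5.04 in the second agouti strain, C3H/HeJ, C57BL/6J and DBA/2J. All but SJL/J of the albino strains were below the pigmented strains, and the difference was -0.39 ± 0.23. Adra2c, an adrenergic receptor, differed by 0.27 ± 0.13, and Maoa, which degrades monoamines, by -0.18 ± 0.15. The median of the 13 was -0.03.

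Strains that carry the same allele can share the chromosome around it, so genes near Tyr were examined in their RefSeq order (GRCm38.p6). Among the 100 nearest RefSeq genes of any kind on each side of Tyr, 14 were tested on 17 probe sets. No probe set passed limma's test, 1 had an unadjusted p under 0.05 and 0 lacked overlap, against 0.0134%, 4.29% and 2.39% of all tested. The one was a probe set of Tenm4, a teneurin of developing neurons, the 27th protein-coding gene beyond Tyr. It read 7.40 to 7.70 in albino strains and 7.56, 6.86, 6.12 and 7.33 in the second agouti strain, C3H/HeJ, C57BL/6J and DBA/2J. Its low strain was C57BL/6J, and the second agouti strain lay within the albino range. Its difference was 0.59 ± 0.26 (adjusted p = 0.887, limma), and its other 2 probe sets gave 0.26 ± 0.24 and 0.37 ± 0.22.

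The tested gene nearest to Tyr was Fzd4, a Wnt receptor, the 5th protein-coding gene beyond it, which differed by -0.23 ± 0.14. On the other side the nearest was Zfand6, 35 protein-coding genes before Tyr (-0.12 ± 0.19), so closer genes there were not read. Hikeshi, Eed, Tmem126a and Pcf11, within 21 genes of Tyr, differed by 0.01 to 0.05 log2 units. Ccdc90b differed by -0.24 ± 0.18, with BALB/cByJ (4.91) alone well below the other strains (5.40 to 5.78). In the wider window of 100 protein-coding genes on each side, 59 probe sets were tested and 3 had no overlap (5.08%, against 2.39% of all). These were Ap3s2, 93 genes before Tyr, Btbd1, 56 before it, and Pold3, 72 beyond it. Their differences were 0.15 ± 0.14, -0.21 ± 0.09 and -0.32 ± 0.14. The median size of a difference in this window was 0.13, against 0.12 over all tested probe sets. Chromosome 7 as a whole had 13 probe sets without overlap among 502 (2.59%).

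**Figure D4:**
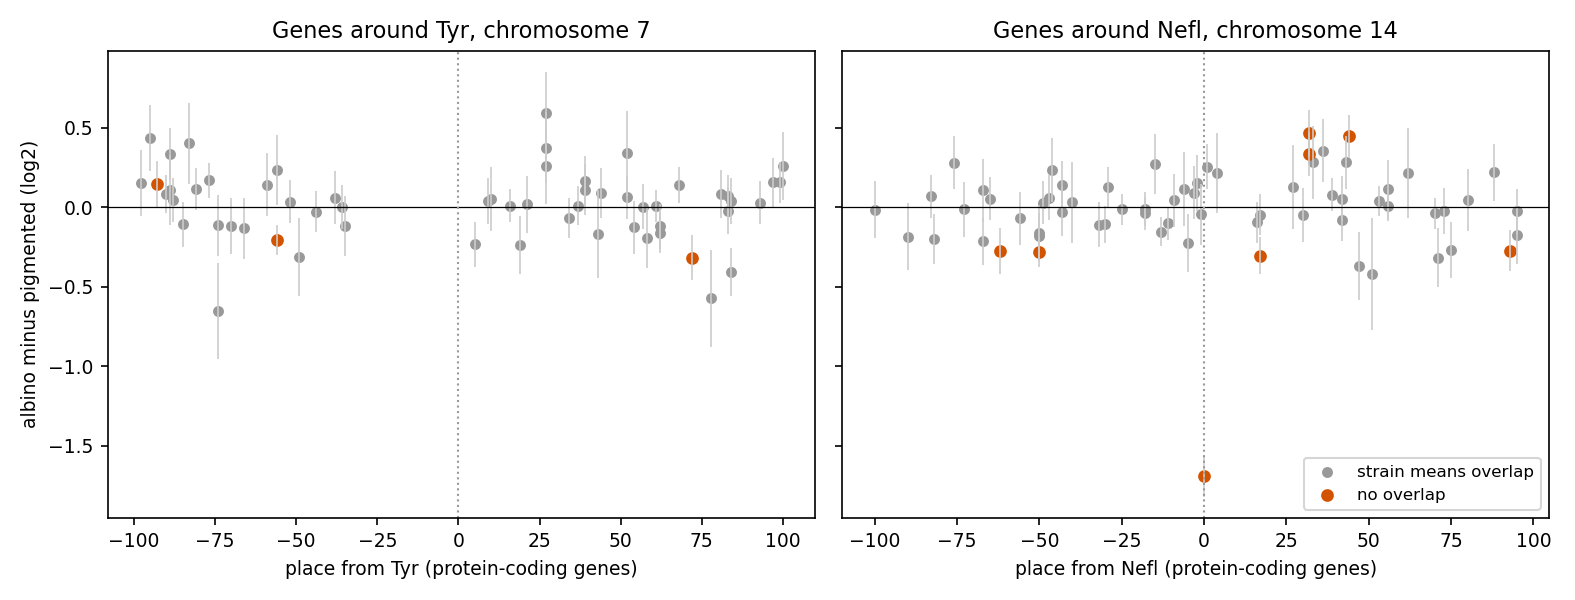
The y axis is the albino minus pigmented difference in log2 signal with its SE, and the x axis the place of a gene counted in protein-coding genes from Tyr on chromosome 7 (left) and from Nefl on chromosome 14 (right). Tested genes within 25 places of Tyr, all beyond it, lie around 0, and 3 probe sets without overlap lie farther out. Nefl has the largest difference in its window, where 7 other probe sets also lack overlap.

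By chromosome, the share of probe sets without overlap ran from 0.485% on chromosome 16 to 4.87% on chromosome 14, where Nefl lies, with 11 of 226. Around Nefl, chosen after its value was seen, 18 probe sets of the 25 protein-coding genes on each side were tested. Apart from Nefl, 1 had no overlap, a probe set of Chmp7, a membrane-sorting factor, 17 genes beyond Nefl. Chmp7 read 6.79 to 7.14 in albino strains and 7.22 to 7.43 in pigmented strains (-0.30 ± 0.12), and its second probe set differed by -0.05 ± 0.13. The nearest tested neighbours, Dock5 (-0.04 ± 0.19) and Gnrh1 (0.15 ± 0.17) on one side and Nefm on the other, had strain means that overlapped. Within 100 genes on each side 8 of 67 probe sets lacked overlap (11.9%, against 2.39% of all). Nefl itself, for which the window was chosen, is 1 of them, and without it 7 of 66 (10.6%) remained, 3 higher and 4 lower in albino strains. These 7 probe sets read 6 of the 56 other genes tested in the window, against 159 of the 5660 named genes tested in all. Counted by genes, the share in the window is thus above that of all tested as well. Whether it exceeds that of other windows was not tested. Among them were 2 probe sets of Bmp1, a protease that processes procollagen (0.47 ± 0.15 and 0.33 ± 0.14), and Gfra2, a receptor of neurturin (0.45 ± 0.13), all higher in albino strains.

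Markers of cell types checked the tissue and its admixtures. In bulk RNA, fewer cells of a type and less RNA per cell cannot be told apart. Of 14 listed neuron and principal cell genes 10 were on the array, all 10 were tested, and 0 passed limma's test or lacked overlap. Their summed signal had a log2 of 12.98 to 13.22 in albino strains and 12.79 to 13.13 in pigmented strains. Neurod2, a factor of excitatory neurons, read 8.80 to 9.05 in albino strains, against 8.87, 8.84, 8.21 and 8.17 in the second agouti strain, C3H/HeJ, C57BL/6J and DBA/2J. Camk2a, a kinase of excitatory synapses, differed by 0.62 ± 0.33 and Neurod1 by 0.60 ± 0.33. In all 3 genes C57BL/6J and DBA/2J were the lowest of the 8 strains.

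Of 7 tested astrocyte genes 1 lacked overlap, against 2.39% of all tested probe sets. It was Gfap, the filament of astrocytes, on its brighter probe set. It read 8.07, 8.22, 8.28 and 8.20 in A/J, BALB/cByJ, FVB/NJ and SJL/J, against 7.83, 8.03, 8.03 and 7.84 in the second agouti strain, C3H/HeJ, C57BL/6J and DBA/2J (0.26 ± 0.10, adjusted p = 0.887, limma). The gap was 0.04, and its other probe set differed by 0.08 ± 0.18. Of 10 interneuron genes 1 lacked overlap, Pvalb, a calcium buffer of fast-spiking cells, by 0.01 log2 units. With lists this short, 1 member without overlap is not set apart from that background.

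Of 8 microglia genes 0 lacked overlap. C1qb, a subunit of complement C1q, differed by -0.78 ± 0.29 on its brighter probe set, where C57BL/6J read 7.52 and the other pigmented strains 6.27 to 6.52, against 5.39 to 6.44 in albino strains. Its other probe set differed by 0.04 ± 0.24. None of the 7 oligodendrocyte, 9 meningeal, 4 choroid plexus, 3 endothelial and 2 blood genes tested passed limma's test or lacked overlap. Their median differences were -0.03, -0.05, -0.14, -0.08 and -0.14. The summed signal of the choroid plexus genes ran from 7.24 to 8.43 in albino strains and from 7.05 to 8.77 in pigmented strains, and Ttr, their brightest member, was lowest in C57BL/6J (6.11) and BALB/cByJ (6.72). The 6 tested markers of thalamus and striatum had a median difference of 0.12 and none lacked overlap. In marker lists this short, counts of 0 are near the 2.39% of all tested probe sets without overlap, and nothing is read from them. The part of these markers in the difference of Nefl was not tested.

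BALB/cByJ was the albino strain whose arrays stood apart most, so the comparison was repeated with 3 albino strains against 4. Limma again called Nefl and no other probe set (1 of 7453, 0.0134%). The count without overlap was 339 (4.55%), 181 higher and 158 lower, which has to be larger with 1 strain fewer and includes all 178 of the full comparison. Leaving out each other strain in turn gave counts from 277 to 500. Nefl passed limma's test in all 8 of these comparisons. Aldh1a1 passed as well without A/J, Scg5, a chaperone of secretory granules, without DBA/2J, and 4833420G17Rik and Zbtb45, a zinc finger protein, without C57BL/6J.

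**Figure D5:**
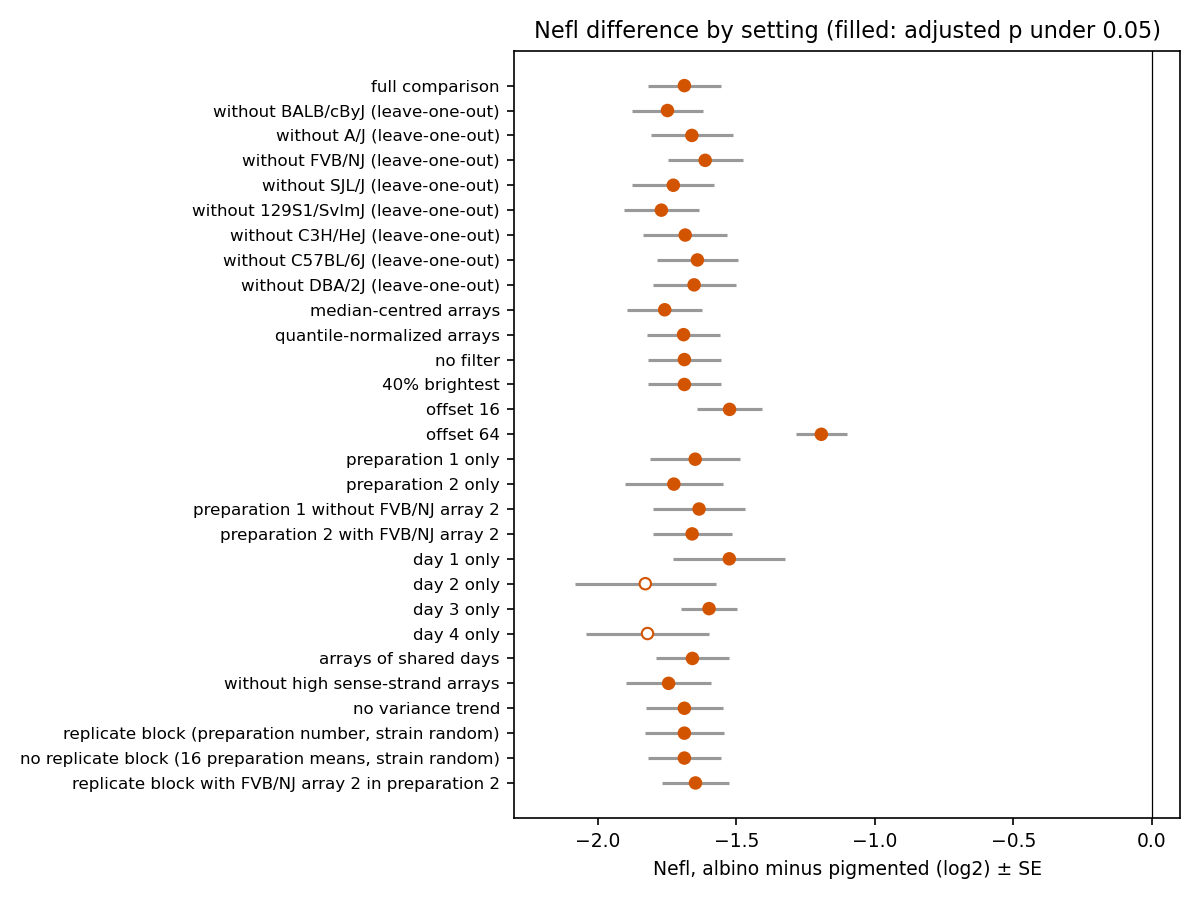
The x axis is the albino minus pigmented difference of Nefl in log2 signal with its SE, one row for each way of processing the data or choosing arrays; filled points have an adjusted p under 0.05 in limma's test. All rows lie between -1.83 and -1.19, and the 2 open points are days 2 and 4 taken alone.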

How the data were processed

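The deposited table holds signal intensities on a linear scale. Per the submitters' processing notes, MAS5 was used for them. No version, scaling target or detection call is given in the sources used here. The mean after trimming 2% from each end was 100.05 to 100.07 on every array, so no further scaling was applied. Strain and array number came from the sample titles, and coat from the strain. The second agouti strain is 129S1/SvImJ. The number of strains (1 pool each, 4 in each set) and of arrays limits the precision.

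The 66 control probe sets among 12488 were dropped. Values were floored at 1, which touched 2.14% of them, and put on the log2 scale. Testing covered the brightest 60% by mean over all arrays, from a mean signal of 21.3. The 4 arrays of a strain were averaged. The albino minus pigmented difference was fitted over 8 strain means with limma 3.58.1 in R 4.3.3 (lmFit, eBayes with a trend, 6 residual degrees of freedom), with Benjamini-Hochberg adjustment over 7453 probe sets and a threshold of 0.05. P-values measure the spread between strains, each of them 1 pool.

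Names came from the platform's annotation, in which 10855 of 11251 probe sets had 1 symbol, 396 several, and 1193 non-control probe sets had no entry here. Of these, 10817 matched a RefSeq table (GRCm38.p6), used for names and gene order. Pklr, Snrp1c-ps2, Ssbp4, Psapl1, Sar1b, Fzd4, Ccdc90b, Gfra2, Ina, Kif5a, Gfap and Pvalb were read in whole or part by probe sets whose suffix marks possible cross-hybridisation. The text names all genes past the test, the 12 higher and 12 lower with no overlap and smallest p, all tested melanin genes, genes next to Tyr (those without overlap and the 5 of smallest p), and up to 3 of each other list. The text also names genes outside this rule that were chosen after their values were seen. These are neurofilament partners, neighbours of Nefl, the other genes of the wider Tyr window, Myo5a, and genes that passed only with a strain left out. Ednrb and Mif, both below the filter, were named for their lack of overlap and belong with these. Tyr and Tyrp1, also below the filter, are outside the rule as well. The smallest p chose the probe set of the first 2 groups and the highest mean signal that of the lists. The strains, lists and tests were chosen with earlier results of these data known.

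Arrays 1 and 2 were taken as preparation 1 and arrays 3 and 4 as preparation 2, which is in doubt for array 2 of FVB/NJ, run on a day of preparation 2 arrays. Preparation numbers were used to pair the arrays, since the study design ties them to the cRNA synthesis. The difference between preparations correlated across probe sets in all 28 pairs of strains (r from 0.109 to 0.557). Apart from array 2 of FVB/NJ, the preparations were run on different days, so this correlation cannot tell preparation from day. Preparation 2 of BALB/cByJ was run on days 5 and 6, and array 4 of FVB/NJ on day 5, unlike the other strains. The test was checked on simulated data with known changes.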

Additional observations from a re-analysis of the deposited data

Results flagged for a closer look

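In 9 of 152 sets of 4 values examined, 1 value lay far from the other 3, a number near the 1 in 20 that chance gives. In 5 of them BALB/cByJ was the strain apart from the other albino strains: Ccdc90b read 4.91 there against 5.53 or more, Folr1 4.40 against 5.13 or more, Calml4 2.98 against 4.98 or more, and Igfbp2 6.84 against 7.15 or more, while Pecam1 read 5.76 against 4.91 or less. Calml4 and Folr1 are choroid plexus genes, whose difference between coat sets (-0.32 ± 0.43 and 0.45 ± 0.24) therefore holds this strain. All 4 BALB/cByJ arrays had high sense-strand control signal, and its part in these values was not tested. Among pigmented strains C3H/HeJ stood apart for Pmel (4.87 against 4.32 or less) and Hps4 (4.69 against 5.11 or more), and DBA/2J for Plin2 (5.68 against 5.39 or less) and H2-Eb1 (4.12 against 4.35 or more).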

How the results depend on the processing

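Across 28 other settings, 4 of them added after seeing the data (array 2 of FVB/NJ in preparation 2, with each preparation alone and with the block, and the block fit without its preparation term), Nefl kept its direction, from -1.83 to -1.19, and passed limma's test in all but 2, day 2 alone (-1.83, adjusted p = 0.108) and day 4 alone (-1.82, adjusted p = 0.0858), where 0 probe sets passed. At an unadjusted p under 0.05, 319 and 333 passed on those days. Against 1 in the full comparison, 2 passed without the high sense-strand arrays, 4 with the preparation block (also with array 2 of FVB/NJ in preparation 2), 2 in that fit with no preparation term, and 1 to 3 with a strain left out. The number without overlap, 178 in full, was 322 with no filter, 269 in preparation 2, 361, 341 and 431 on days 2, 3 and 4, 485 without the high sense-strand arrays and 277 to 500 with a strain left out (410 without A/J, 339 without BALB/cByJ, 484 without FVB/NJ, 326 without SJL/J, 430 without C3H/HeJ, 277 without C57BL/6J, 317 without DBA/2J and 500 without the second agouti strain). Settings with 7 strains have more by construction. Of the 178, 68 (38.2%) had none in preparation 1 alone and 49 (27.5%) in preparation 2 alone, and 57 (32%) without the high sense-strand arrays. Of 72 named probe sets 36 changed sign in at least 1 setting, 2 of them among the 23 without overlap, and none of those had a call to lose. With 1 pool per strain the spread between animals was not measured, and no detection calls were used, so low signals may lie at background.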
